A study of Rattus norvegicus with 9 samples.

Results

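Bdnf, the gene of brain-derived neurotrophic factor, and Ntrk2, the gene of its receptor TrkB, were examined in the dorsal hippocampus of adult rats reared with or without early-life adversity. They are 2 of the 32545 rat Ensembl gene identifiers counted in each library, chosen by identifier (ENSRNOG00000047466 for Bdnf and ENSRNOG00000018839 for Ntrk2), and both were among the 14463 genes kept for testing. All animals were male Sprague-Dawley rats, an outbred stock, 8 weeks of age and not tested in behaviour. The control group (CTL) had 4 rats from control rearing, and the adversity group (ELA) had 5 rats raised under early-life adversity. How the adversity was imposed is not described in the labels used here. Each rat gave 1 library of polyadenylated RNA, and the labels do not tie rats to litters.

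BDNF is a secreted protein of the neurotrophin family, made in the hippocampus mainly by excitatory neurons and released in relation to their activity. It binds TrkB, a receptor tyrosine kinase whose activation engages the MAP kinase, PI3 kinase and phospholipase C gamma pathways and is known for its part in synaptic plasticity. Ntrk2 gives rise to a full-length receptor with the kinase domain and to truncated receptors without it, the latter abundant in astrocytes. Bdnf is transcribed from several alternative starts that are spliced to a shared coding exon. The counts are summed over each gene, so neither the receptor forms nor the Bdnf starts were resolved, and the tissue was taken in bulk, so that fewer cells of a type and less RNA per cell cannot be told apart.

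The sequences before 3 of the Bdnf starts are shown because the count of Bdnf combines transcripts from starts with unlike sequence before them. RefSeq annotates 6 start windows for Bdnf on the plus strand of chromosome 3 in the GRCr8 assembly, and the 3 below were the windows with a match to a motif searched on both strands. The searched motifs were the cyclic AMP response element TGACGTCA, its half-site TGACG, the variant TCACGTCA known from an activity-dependent Bdnf promoter, the E-box CACGTG and the glucocorticoid response element half-site AGAACA. The half-site TGACG overlaps both longer forms of its element. Each line gives the 250 bases before the start, 5′ to 3′, with matches in capitals.
Bdnf first start, chr3:116619383-116619632: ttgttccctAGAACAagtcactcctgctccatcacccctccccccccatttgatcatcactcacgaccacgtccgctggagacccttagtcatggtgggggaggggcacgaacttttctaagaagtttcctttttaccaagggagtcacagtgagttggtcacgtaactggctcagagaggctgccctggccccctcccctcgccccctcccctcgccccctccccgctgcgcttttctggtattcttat
Bdnf start 1202 bases downstream of the first, chr3:116620585-116620834: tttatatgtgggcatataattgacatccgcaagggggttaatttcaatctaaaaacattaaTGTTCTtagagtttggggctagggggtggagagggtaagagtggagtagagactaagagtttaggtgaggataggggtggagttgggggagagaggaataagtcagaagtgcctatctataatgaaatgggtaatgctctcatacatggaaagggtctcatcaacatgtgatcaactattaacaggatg
Bdnf start 18225 bases downstream of the first, chr3:116637608-116637857: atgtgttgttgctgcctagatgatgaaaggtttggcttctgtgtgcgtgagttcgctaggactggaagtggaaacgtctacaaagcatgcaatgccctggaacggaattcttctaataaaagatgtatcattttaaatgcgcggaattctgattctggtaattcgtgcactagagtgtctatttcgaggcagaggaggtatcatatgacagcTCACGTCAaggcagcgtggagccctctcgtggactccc

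The variant TCACGTCA, with the half-site as its last 5 bases, began 38 bases before the start that lies 18225 bases downstream. Over all 33469 rat start windows in the same table, 0.35% held this variant and 18.2% held the half-site TGACG in the 250 bases before the start. The glucocorticoid half-site was found in 2 of the 6 Bdnf windows and in 17.5% of all windows. The full element TGACGTCA (1.59% of all windows) and the E-box (5.59%) matched in 0 of the 6 Bdnf windows. These matches describe the letters only, and the read counts could not be assigned to a start.

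Reads assigned to genes numbered 11049282 to 17089188 per library. Control replicate 1 scored higher than the other controls on the leading axis of variation. This axis is the first principal component of the 500 genes of highest variance with Bdnf and Ntrk2 left out. It held 33.9% of the variance of those genes. The sign of the component is arbitrary and was set so that the ELA mean was the higher. The signs of its correlations depend on that choice. Control replicate 1 scored 5.31, against -12.84 to -7.62 in control replicates 2, 3 and 4 and -3.64 to 12.3 in the ELA rats. No source used here pairs identifiers with symbols for other genes, so the tissue could not be checked against its markers, and the other neurotrophins, their receptors and the signalling genes downstream of TrkB could not be read.

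Bdnf, the ligand, was on average higher in the ELA rats, but the rats differed among themselves and the difference did not pass the test. Its level, in CPM (the gene's reads scaled to a fixed number of gene reads per library), was 62.6, 40.2, 26.2 and 31.6 in control replicates 1 to 4. In ELA replicates 1 to 5 it was 65.6, 66.1, 63.6, 47.6 and 44.4 CPM. Control replicates 2, 3 and 4 lay below every ELA rat, while control replicate 1 lay above ELA replicates 4 and 5, so the groups overlapped. The group means were 40.1 ± 16.0 CPM for control rearing (SD, n = 4) and 57.5 ± 10.6 CPM for adversity (SD, n = 5). The log2 fold change was 0.53 with a standard error of 0.24, a 1.45-fold higher level with a 95% interval from 0.992-fold to 2.11-fold (edgeR quasi-likelihood test, unadjusted p = 0.0541, adjusted p = 0.535).

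Ntrk2, the receptor gene, was lower in the ELA rats by a small margin that did not pass the adjusted test either. It was at 698, 754, 775 and 682 CPM in control replicates 1 to 4. The ELA replicates 1 to 5 had 683, 599, 651, 665 and 623 CPM. The groups met at a single point: ELA replicate 1 (682.6 CPM) was just above control replicate 4 (681.6 CPM), and every other ELA rat was below every control. Group means were 727 ± 44.5 CPM for control rearing and 644 ± 33.5 CPM for adversity (SD, n = 4 and 5). The log2 fold change was -0.16 with a standard error of 0.056, or 0.892-fold, with a 95% interval from 0.820-fold to 0.971-fold (edgeR, unadjusted p = 0.0120, adjusted p = 0.352). The interval is for this gene alone and is not adjusted for the number of genes.

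**Figure D1:**
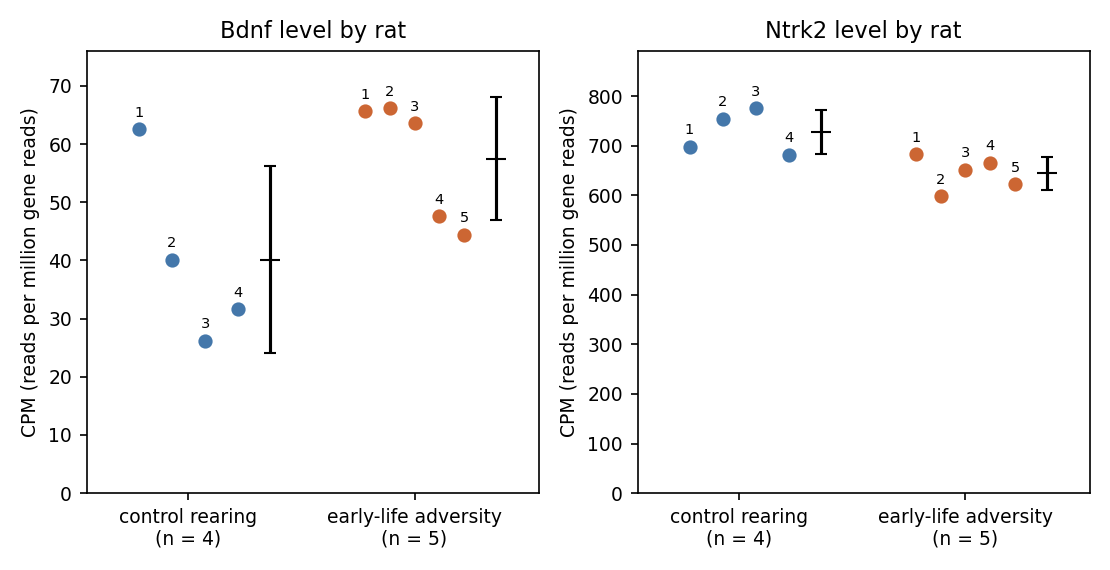
Level of Bdnf (left) and Ntrk2 (right) in CPM in each rat. Points are rats numbered by replicate and the black marks are the mean ± SD of each group (n = 4 and 5). For Bdnf, control replicate 1 at 62.6 CPM sits with ELA replicates 1 to 3, and for Ntrk2 the groups overlap only by ELA replicate 1 and control replicate 4.

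Neither of the 2 genes was called at an adjusted p under 0.05 by edgeR, a rule that called 0.0415% of all genes tested. At an unadjusted p under 0.05, 1 of the 2 (Ntrk2) passed, where 9.4% of all genes did. The groups were free of overlap in 0 of the 2, against 2.93% of all genes. The DESeq2 Wald test gave adjusted p-values of 0.625 for Bdnf and 0.152 for Ntrk2, and limma-voom with equal weights gave 0.339 and 0.321. Limma-voom with weights that count variable libraries less called Bdnf at a log2 fold change of 0.82 (adjusted p = 0.0447) and left Ntrk2 at an adjusted p of 0.104. That fit called 305 of the 14463 genes tested, against 6 of 14463 in the main edgeR fit.

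The genes differed in how much rats of the same group varied. The biological coefficient of variation estimated by edgeR was 25.0% for Bdnf, above that of 96.9% of the genes tested, and 6.95% for Ntrk2, above that of 22.7%, with a median of 8.93% over all genes tested. Among controls the highest Bdnf level was 2.39 times the lowest, and among ELA rats 1.49 times. The same ratios for Ntrk2 were 1.14 and 1.14. Counting error was smaller than this spread: Bdnf had 370 to 1121 reads per library, which gives a relative counting error of 2.99 to 5.20%, and Ntrk2 had 7350 to 11665 reads, with a counting error of 0.926 to 1.17%. The size of the Bdnf difference, apart from its error, was above that of 97.4% of the genes tested, whose median absolute log2 fold change was 0.0802. For Ntrk2 the size was above that of 75.2% of genes.

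Leaving out single rats moved the Bdnf estimate more than that of Ntrk2. A Dixon outlier test was run within each group on both levels and on the ratio of their reads. Over these 6 sets of values, each of only 4 or 5 rats, it found 0 outlying libraries. The fits without control replicate 1 are therefore not preferred to the fit of all 9 libraries. Without control replicate 1 the log2 fold change of Bdnf was 0.83 with a 95% interval from 0.44 to 1.23 (edgeR, adjusted p = 0.0636), a 1.78-fold higher level. Without control replicate 3, the rat with the lowest Bdnf level, it was 0.37 with an interval from -0.14 to 0.88. With any 1 of the other 7 libraries left out it lay between 0.43 and 0.61. The log2 fold change of Ntrk2 stayed between -0.20 and -0.14 over all 9 such fits, with adjusted edgeR p-values from 0.206 to 0.886. Over these fits the Bdnf difference was always above 0 and the Ntrk2 difference always below 0, and neither gene was called.

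**Figure D2:**
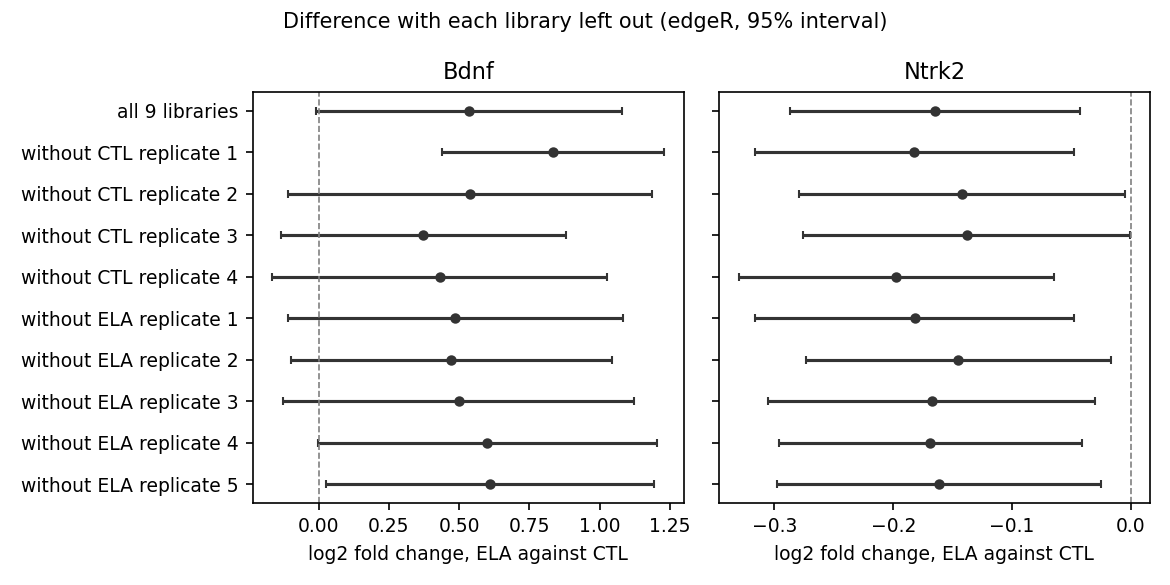
Log2 fold change of Bdnf (left) and Ntrk2 (right), ELA against CTL, from edgeR with all 9 libraries and with each library left out. Points are estimates, bars are unadjusted 95% intervals, the dashed line is no difference, and the horizontal scales differ. Bdnf runs from 0.37 without control replicate 3 to 0.83 without control replicate 1, and Ntrk2 from -0.20 to -0.14.

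Ligand and receptor reads were also set against each other within each library, which removes the scaling of libraries. Without correction for transcript length this ratio is used only to compare rats. Control replicates 1 to 4 had 11.2, 18.8, 29.6 and 21.6 Ntrk2 reads for each Bdnf read. ELA replicates 1 to 5 had 10.4, 9.05, 10.2, 14.0 and 14.0. Control replicates 2, 3 and 4 were above every ELA rat, and control replicate 1 lay between ELA replicates 1 and 4. The means were 20.3 ± 7.60 in controls and 11.5 ± 2.31 in ELA rats (SD, n = 4 and 5).

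On the log2 scale the Bdnf to Ntrk2 ratio was -4.26 ± 0.586 in controls and -3.51 ± 0.286 in ELA rats (SD, n = 4 and 5). The difference was 0.75, a 1.68-fold higher ratio in ELA rats (exact permutation test over 126 assignments, two-sided p = 0.0317). The test passed without control replicate 1 (difference 1.01, exact permutation p = 0.0179) and did not pass with any 1 of the other 8 libraries left out, where the difference was 0.54 without control replicate 3 (exact permutation p = 0.107) to 0.83 without ELA replicate 5 (exact permutation p = 0.0571). The ratio joins the differences of both genes, and is not evidence in addition to them.

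**Figure D3:**
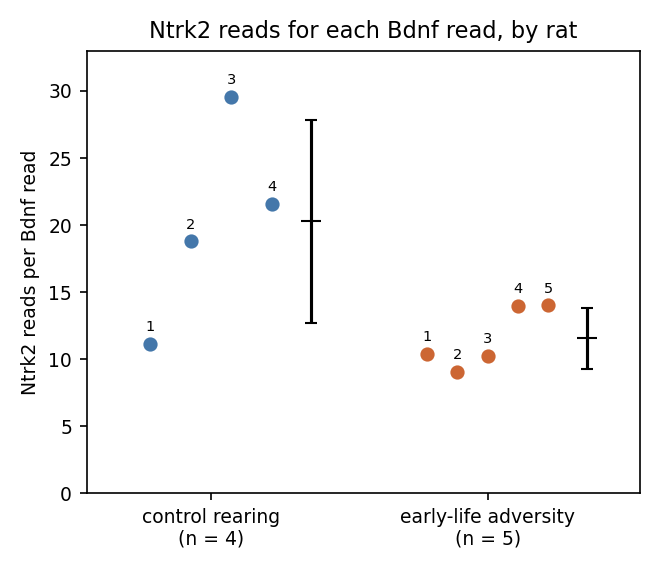
Number of Ntrk2 reads for each Bdnf read in each rat, not corrected for transcript length. Points are rats numbered by replicate and black marks are the mean ± SD (n = 4 and 5). ELA rats lie between 9.05 and 14.0, and controls between 11.2 and 29.6.

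Across the 9 rats, the levels of Bdnf and Ntrk2 had a negative correlation that did not pass a test. Pearson's r of their log2 CPM was -0.60 (exact permutation p = 0.0886) and Spearman's rho was -0.57 (exact permutation p = 0.121), each with an adjusted p of 0.423 over the 26 coefficients of the 13 relations computed. Without control replicates 3 and 4, the rats farthest from the median of Bdnf, r was -0.45. Within groups, after subtraction of the group means, r was -0.23.

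Bdnf followed the first principal component of the other genes closely. Pearson's r was 0.91 (exact permutation p = 0.000945, adjusted p = 0.0246) and Spearman's rho was 0.88 (exact permutation p = 0.00308, adjusted p = 0.0400) over 9 rats. The relation was 0.91 without the 2 libraries with the most distant scores, 0.89 to 0.94 with any 1 library left out, and 0.85 within groups. The component sums up the most variable genes of the same 9 libraries. Bdnf is itself among the more variable genes, with a biological coefficient of variation above that of 96.9% of the genes tested. The p-values test against no relation, and the share of all genes that follow the component as closely was not computed. The relation is therefore not read as particular to Bdnf. Control replicate 1 had the highest Bdnf level and the highest score of the controls, and ELA replicates 4 and 5 had the lowest Bdnf levels and the lowest scores of the ELA rats. For Ntrk2 the relation was weaker and did not pass (r of -0.60 and rho of -0.53 over 9 rats, with exact permutation p-values of 0.0934 and 0.148, or 0.423 for both after adjustment), with r at -0.75 without the 2 most distant libraries and -0.17 within groups.

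The component scores, their sign set to make the ELA mean the higher, averaged -6.10 ± 7.92 in controls and 4.88 ± 6.51 in ELA rats (SD, n = 4 and 5). The scores of the groups overlapped. The component was computed from both groups, so it may itself hold a difference of rearing. A fit with the component as a covariate would take such a difference out, and whether it did so was not tested. With the component as a covariate, a fit added after the data had been seen, the log2 fold change of Bdnf was 0.03 with a 95% interval from -0.34 to 0.39 (edgeR, adjusted p = 0.969). Ntrk2 was at -0.15 with an interval from -0.29 to -0.01 in that fit (edgeR, adjusted p = 0.428). Library depth had a Pearson r of 0.22 and a rho of 0.43 with Bdnf (exact permutation p-values of 0.574 and 0.250, or 0.934 and 0.591 after adjustment), with r at -0.03 without the 2 most distant libraries. The share of gene reads in the 10 most abundant genes, 5.94 to 8.79% over the libraries, had an r of -0.51 and a rho of -0.67 with Bdnf (exact permutation p-values of 0.163 and 0.0589, both 0.423 after adjustment), with r at -0.55 without the 2 most distant libraries. Of the 26 coefficients, only those of Bdnf with the component passed after adjustment, and the smallest adjusted exact permutation p of the others was 0.423.

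**Figure D4:**
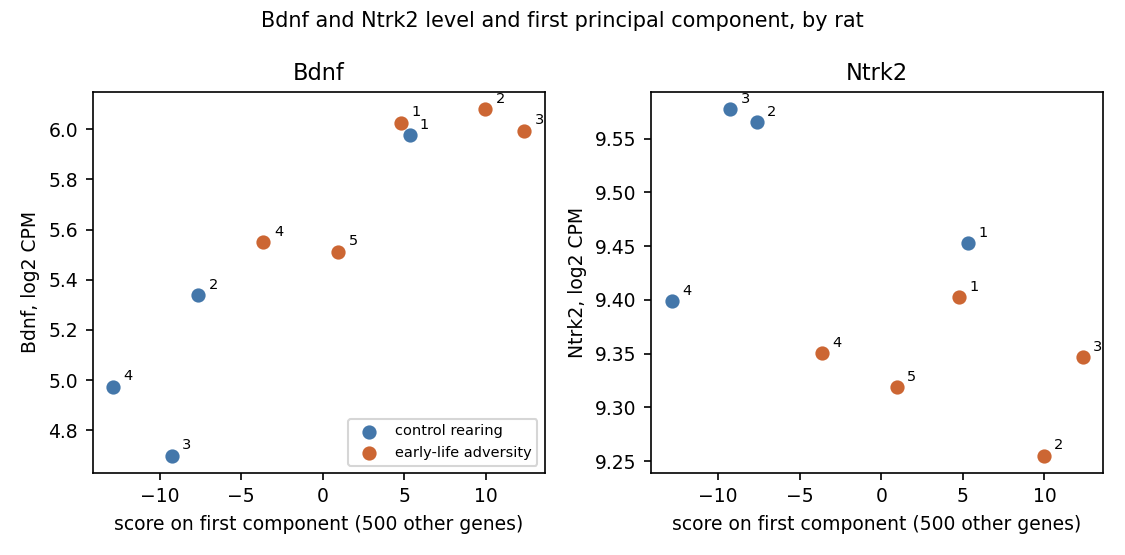
Log2 CPM of Bdnf (left) and Ntrk2 (right) against the score on the first principal component of 500 other genes. Each point is a rat, coloured by rearing group and numbered by replicate. Bdnf is higher in rats with higher scores (r = 0.91), with control replicate 1 beside ELA replicate 1.

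Other genes shared the Bdnf pattern. Among 13906 other genes with a mean of at least 1 CPM, 159 had a correlation with Bdnf above 0.9 over the 9 libraries and 51 had one below -0.9. For Ntrk2 these numbers were 14 and 11. Such counts were not made for other genes, and Bdnf itself followed the first component (r = 0.91). They are therefore not read as particular to Bdnf. The gene most like Bdnf, ENSRNOG00000023509, had r = 0.99 over the libraries and 0.98 within groups, and ranged from 67.5 CPM in control replicate 3 to 107 CPM in ELA replicate 1. Its log2 fold change was 0.30 (edgeR, adjusted p = 0.356). ENSRNOG00000026564 ran most opposite to Bdnf (r = -0.97, and -0.99 within groups), from 24.6 CPM in ELA replicate 2 to 39.7 CPM in control replicate 3. The gene most like Ntrk2, ENSRNOG00000032398, had r = 0.95 and 0.85 within groups. ENSRNOG00000017731 ran most opposite to Ntrk2, with r = -0.94 and -0.83 within groups. These 4 genes were picked as extremes of 13906 correlations that share libraries and scaling, so the values describe likeness of pattern only.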

How the data were processed

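The deposited files hold whole-number read counts per gene, 1 file for each rat. The submitters' processing notes name STAR 2.5.0, HTSeq 0.6.1 and the rn6 genome. No source used here gives the annotation release or strand setting, so reads of overlapping or antisense genes may be joined or lost. The 5 summary entries naming no gene were left out, and 61.9 to 65.7% of records were assigned to genes. CPM is a gene's count divided by the library's gene reads and scaled to 1000000.

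Counts of all genes kept by filterByExpr were fitted in edgeR 4.0.16 (R 4.3.3) with TMM factors (0.975 to 1.02), the robust quasi-likelihood test and no covariate over all 9 libraries. P-values were adjusted by Benjamini-Hochberg over all genes tested. Log2 CPM used a prior count of 2. The script of this fit was tested on simulated counts. DESeq2 1.42.0, limma 3.58.1, other scalings, filters, blocks and leaving out each library were alternatives.

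The gene table held 0 of the 32545 identifiers, so planned lists of neurotrophin pathway and cell type genes were not run. Symbols of Bdnf and Ntrk2 were given with their identifiers. Promoter windows came from RefSeq (GRCr8), matched by symbol for 1 of the 2 genes. Named genes were Bdnf, Ntrk2 and, for each, the identifiers of highest and lowest correlation. Members and lists were chosen with earlier results of these data known. Each library is a separate rat. The 95% intervals of fold changes include the variation between rats, whereas the relative counting errors cover counting alone.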

Additional observations from a re-analysis of the deposited data

How the results depend on the processing

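The log2 fold change of Bdnf was 0.03 with the first principal component as a covariate (95% interval from -0.34 to 0.39), a fit added after seeing the data, and 0.37 to 0.83 under the other alternatives. That of Ntrk2 was -0.20 to -0.14. The component may itself hold a difference of rearing, and the covariate fit cannot tell whether it took one out. The threshold of 0.1 and the fit without robust estimation leave the estimate as it is. Bdnf passed the threshold with limma-voom sample weights (0.82, adjusted p = 0.0447). It also passed without control replicate 1 and with a replicate block by description number (0.68, edgeR adjusted p = 0.0335). That fit, added after seeing the data, rested on same-numbered pairs 3, 5 and 6 and called 36 of 14561 genes. Ntrk2 passed only in the exact permutation test of its log2 CPM, which is not adjusted for other genes (difference -0.16, exact permutation p = 0.0159). For Bdnf the exact permutation p was 0.0794.

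The number of genes called was 6 and became 11 with no filter on low counts, 142 by DESeq2, 305 by limma-voom with sample weights, 1 with a replicate block by title number and 78 with a block by description number. With 1 library left out it ran from 2 to 130, the latter without control replicate 1.

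Titles and descriptions number the rats differently. The labels tie neither number to a litter or batch, so neither was taken as a pairing. Same-numbered rats had correlations of their deviations from the group mean of -0.13 to 0.24 by title and -0.17 to 0.24 by description. With 4 such pairs for each numbering, these values cannot show whether the rats were paired. With the replicate block by title number Bdnf was at 0.65 and Ntrk2 at -0.16 (edgeR adjusted p = 0.289 and 0.437), and by description number at 0.53 and -0.18 (edgeR adjusted p = 0.0856 and 0.251). The ratio of Bdnf to Ntrk2 reads with these blocks was 0.83 and 0.72 (exact sign-flip permutation p = 0.125 for both, the smallest that 4 pairs allow). With 1 library left out that ratio ran from 0.54 to 1.01. The correlation of Bdnf with Ntrk2 stayed below 0 and did not pass in any of 12 alternatives. The counting error of both genes was below the spread between rats of a group, so deeper sequencing would narrow the intervals little.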
